A study of Mus musculus with 5 samples.

Results

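Mmp12-positive macrophages were picked out of 4 droplet single-cell libraries of the mouse kidney by a rule on raw counts of unique molecular identifiers (UMIs, each standing for 1 captured RNA molecule). A cell was included if it had at least 200 genes, at most 50% mitochondrial UMIs, at least 2 UMIs of Mmp12, at least 10 UMIs summed over the phagocyte genes Tyrobp, Fcer1g and Lyz2, and no UMI of either of 2 exclusion genes, 1 of them the T cell gene Cd3e. This gave 386 of the 16876 deposited cells, or of the 13823 cells that passed the gene and mitochondrial limits. The comparator throughout was the set of 3537 cells of the same libraries that met every other term and had no Mmp12 UMI, called Mmp12-zero cells here. Cells with exactly 1 Mmp12 UMI entered neither group. The cells were thus selected on their measured UMIs of Mmp12, of the 3 phagocyte genes and of the 2 exclusion genes.

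The study followed the kidney through unilateral ureteric obstruction (UUO), a blockage of urine outflow on 1 side, and through its release. All mice were of the strain given as C57/BL6, 8 weeks old, with no other allele or agent named in the labels. The groups were sham surgery (day 0), day 2 of UUO, day 7 of UUO, and reversed UUO, collected 7 days after reversal on experimental day 14. Each group was 1 library from 3 pooled mice, so no group had replicates and no test between groups was possible. No test was run, and every interval below covers counting error only. Another sample of 768 Smart-seq2 wells mixed all time points.

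Mmp12 encodes macrophage elastase, a secreted metalloproteinase that cuts elastin and other matrix proteins and is made mainly by macrophages. Retnla encodes RELMα (Fizz1), a secreted protein induced in macrophages by the interleukin-4 and interleukin-13 pathway. Ear2 encodes a ribonuclease of the eosinophil-associated family, and Dcstamp encodes DC-STAMP, a membrane protein required for fusion of macrophages and osteoclast precursors into multinucleated cells. Mmp12 defined the cells described here, and the other 3 genes were given with it as their markers.

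On GRCm38 the GENCODE annotation places Mmp12 (ENSMUSG00000049723) at chr9:7344381-7369499, Retnla (ENSMUSG00000061100) at chr16:48842551-48844461, Ear2 (ENSMUSG00000072596) at chr14:44102654-44103534 and Dcstamp (ENSMUSG00000022303) at chr15:39745930-39760938. The promoter windows of Mmp12 and Retnla are shown because these are the gene that defined the cells and the marker whose level differed most between libraries. They are RefSeq sequences of GRCm38.p6, plus strand, from 250 bases before to 50 bases after an annotated start, with capitals on matches to 4 motifs searched on both strands: AP-1 (TGANTCA), the PU.1 core (GAGGAA), STAT6 (TTC and GAA with any 4 bases between them) and the TATA box motif, spelled TATAAA. The Mmp12 window is chr9:7347124-7347423, 1 of 2 that RefSeq gives for this gene, and the Retnla window is chr16:48842359-48842658.
Mmp12: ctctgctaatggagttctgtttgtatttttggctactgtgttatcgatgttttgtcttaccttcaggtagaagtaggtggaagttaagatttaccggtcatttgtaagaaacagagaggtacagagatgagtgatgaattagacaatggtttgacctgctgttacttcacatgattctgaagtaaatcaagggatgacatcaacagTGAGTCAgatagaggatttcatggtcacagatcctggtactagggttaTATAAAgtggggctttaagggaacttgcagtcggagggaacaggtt
Retnla: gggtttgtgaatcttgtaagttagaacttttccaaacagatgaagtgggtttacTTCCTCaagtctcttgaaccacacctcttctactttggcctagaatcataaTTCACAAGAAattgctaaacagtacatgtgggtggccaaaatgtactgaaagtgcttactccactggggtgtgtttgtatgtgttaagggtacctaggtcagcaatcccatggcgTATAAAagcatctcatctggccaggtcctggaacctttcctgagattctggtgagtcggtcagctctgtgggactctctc

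The Mmp12 window held an AP-1 match 44 bases before the start, a motif present in 7.81% of the 32851 windows of the same length, and a TATA match just after the start. Whether this annotated start is the one used in these cells was not tested, so the 44 bases refer to the annotation only. The Retnla window held a STAT6 match 145 bases before its start, a reverse PU.1 core 196 bases before it and a TATA match 30 bases before it, motifs present in 6.95%, 28.3% and 13.6% of all windows. The other Mmp12 window, chr9:7344147-7344446, held a reverse PU.1 core 86 bases before its start, and the Ear2 window, chr14:44102404-44102703, held none of the 4 motifs. A match describes the letters in the window and is not a measured binding site.

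The 386 cells were unevenly spread over the libraries. The sham library held 7 of them, UUO day 2 held 56, UUO day 7 held 224 and reversed UUO held 99. As a share of all cells that met the non-Mmp12 terms, they made up 10.1% of 69 cells in sham (exact 95% interval 4.18 to 19.8), 10.8% of 520 at day 2 (8.24 to 13.8) and 7.51% of 2981 at day 7 (6.59 to 8.52). After reversal the share was 14.1% of 701 (11.6 to 16.9). The day 7 share was the lowest although that library held most of the cells, and the day 7 library also held 2488 Mmp12-zero cells, against 551 after reversal. As a share of every kept cell in the library, which depends on what the digestion released, the same cells made up 0.178%, 2.54%, 5.04% and 3.06%. That order depended on the threshold and on depth. With at least 1 Mmp12 UMI the raw shares were 14.5%, 15.6%, 16.5% and 21.4%. With gated cells thinned to 2000 UMIs, which left out 14 shallower cells of the 69 in sham and none elsewhere, the shares with at least 2 Mmp12 UMIs were 10.9%, 3.65%, 4.36% and 9.99%, and those with at least 1 were 16.4%, 7.69%, 8.62% and 14.0%.

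Mmp12 itself, used to choose the cells, is given as a description. Its UMIs per cell ran from 2 to 5 in sham (median 3), from 2 to 41 at day 2 (median 6), from 2 to 82 at day 7 (median 7) and from 2 to 164 after reversal (median 10). Cells with 10 or more Mmp12 UMIs numbered 0 of 7, 12 of 56, 85 of 224 and 54 of 99. Just inside the threshold, 2, 11, 31 and 12 cells had exactly 2 UMIs, and just outside it 3, 25, 269 and 51 cells had exactly 1. In summed UMIs the level was 893, 479, 1230 and 2017 CPM, that is UMIs scaled so that all genes sum to the same total in each group of cells. The ranges overlapped in all 4 libraries, with the upper tail longest after reversal.

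**Figure D1:**
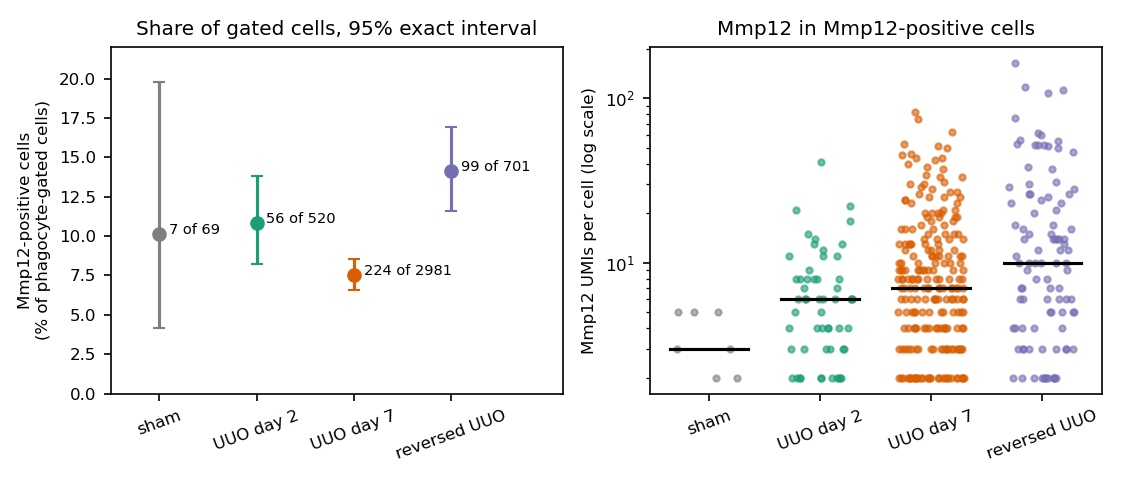
Left, Mmp12-positive cells as a percentage of phagocyte-gated cells in each library, with exact 95% intervals for counting error; right, Mmp12 UMIs of every positive cell on a log axis, with the median as a line. The share was lowest at UUO day 7 (224 of 2981 cells), and the median number of Mmp12 UMIs went from 3 in sham to 10 after reversal.

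Free RNA in droplets can give UMIs to cells that do not express a gene, so Mmp12 was counted in cells gated as endothelium, proximal tubule or T cells with under 10 phagocyte UMIs. At least 1 Mmp12 UMI was seen in up to 7.87% of such cells, the T cell gate at day 7, where the phagocyte gate stood at 16.5%. At the 2 UMIs the rule required, the highest value was 2 of 127 T cell-gated cells at day 7 (1.57%), and the others were 1 of 417 endothelial-gated cells (0.24%) and 1 of 1342 proximal tubule-gated cells (0.0745%), both after reversal, and 0 in the remaining gates. Median depth was 2420 to 4928 UMIs in these gates and 3284 to 9622 in the phagocyte gate. Depth also differed within the gate. The median Mmp12-positive cell held 3785, 13024, 9134 and 9092 UMIs in the order sham, day 2, day 7 and reversed, against 3223, 8969, 6691 and 7020 in Mmp12-zero cells. Library totals were 18649637 to 30462683 UMIs. Pairs of libraries shared 16 to 39 cell barcodes, and 6 of the 386 cells carried such a barcode.

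The label was checked against macrophage markers and against the 3 markers the rule did not use. Csf1r, the receptor for macrophage colony-stimulating factor, was found in 92.9% of Mmp12-positive cells at day 2, 84.4% at day 7 and 88.9% after reversal, against 75.9%, 69.8% and 67.0% of zero cells and 6.32%, 11.8% and 8.15% of endothelial-gated cells. Positive cells were deeper, and at 2000 UMIs per cell the Csf1r shares were closer, at 55.4%, 49.6% and 56.6% against 46.0%, 44.3% and 47.9%. Adgre1 (F4/80) was found in 44.6%, 42.9% and 51.5% of positive cells, 49.4%, 57.1% and 57.4% of zero cells and 0%, 7.08% and 4.08% of endothelial-gated cells. With cells thinned to 2000 UMIs the Adgre1 shares were 16.1%, 17.9% and 22.2% of positive against 21.2%, 35.5% and 33.9% of zero cells. C1qa, of complement C1q, said less, since at day 7 it was found in 98.2% of positive and 96.1% of zero cells but also in 74.5% of endothelial-gated cells. In sham, 6 of 7 cells had Csf1r and 5 had Adgre1. Csf1r and Adgre1 were thus above the endothelial background, and Adgre1 was found in a smaller share of positive than of zero cells in the UUO libraries, though at equal depth the intervals of the shares overlapped at day 2 and after reversal and did not at day 7. The background at day 7 was higher in T cell-gated and proximal tubule-gated cells, at 19.7% and 14.3% for Csf1r and 11% and 12.8% for Adgre1. These shares were below those of positive cells. Among dendritic cell genes, Flt3 was found in 10.7%, 3.12% and 1.01% of positive cells against 13.7%, 8.04% and 13.1% of zero cells. Cd209a was found in 37.5% against 16.9% at day 7, where 5.42% of endothelial-gated cells had it. At 2000 UMIs per cell its shares were 7.14%, 22.8% and 7.07% against 8.20%, 9.04% and 9.62%, larger in positive cells at day 7 alone. Retnla, Ear2 and Dcstamp were all at 0 in the 7 sham cells, and 42 of the 56 day 2 cells had none of them. At least 1 of the 3 was found in most positive cells at day 7 and after reversal, but 48 of 224 and 31 of 99 had none and only 16 and 12 had all 3. The sham cells and most day 2 cells were Mmp12-positive phagocytes in which the other 3 markers were not detected.

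Retnla was a marker of the later libraries. At day 2 it was found in 0 of 56 Mmp12-positive cells, where a limit of 3 counts in 56 cells allows a share of cells with a UMI of up to 5.36%, and in 1.37% of Mmp12-zero cells. At day 7 it was found in 28.1% of positive cells (22.3 to 34.5) and 8.28% of zero cells, at 275 and 30.4 CPM, a log2 ratio of 3.13 (2.97 to 3.30). After reversal it was found in 32.3% (23.3 to 42.5) and 7.62%, at 926 and 12.3 CPM, a log2 ratio of 6.13 (5.76 to 6.50). That level rested on few cells: 2 cells with 313 and 293 UMIs held 63.9% of the Retnla UMIs, and without the top 2 cells of each group the ratio was 5.13 and the positive level 335 CPM. At day 7, 17 of 224 cells had 10 or more Retnla UMIs, and 10 of 99 did after reversal. In endothelial-gated cells the raw share was 4.25% and 4.80%. At 2000 UMIs per cell, positive cells stood at 15.6% and 16.2%, zero cells at 2.69% and 1.63% and endothelial-gated cells at 2.36% and 1.44%, so the share in zero cells was close to the background.

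Ear2 was the most widely detected of the 3 at day 7 and after reversal, though not at day 2. It was seen in 72.3% of positive cells at day 7 (66.0 to 78.1) against 19.2% of zero cells, and in 56.6% after reversal (46.2 to 66.5) against 15.8%. The levels were 881 against 67.3 CPM at day 7 (log2 3.69, 3.60 to 3.78) and 791 against 62.3 CPM after reversal (log2 3.65, 3.45 to 3.84). At day 2 it was seen in 12.5% and 13.2% of cells, at 43.8 and 40.8 CPM (log2 0.10, -0.44 to 0.62), and 2 cells held 73% of the day 2 UMIs. At 2000 UMIs per cell the share in zero cells at the later times was 8.04% and 6.72%, above the 3.07% and 1.68% of endothelial-gated cells. The range at day 7 ran up to 59 UMIs with a median of 3.5, and 76 of 224 cells had 10 or more. Ear2 has near-identical relatives, so reads between them may have been split or lost, and the other Ear genes on the list were at or near 0.

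Dcstamp was sparse. It had a UMI in 16.1% of positive cells at day 2, 26.3% at day 7 and 32.3% after reversal, against 1.82%, 1.45% and 1.27% of zero cells and 0% to 0.719% of endothelial-gated cells. At day 7, 2 of 133 proximal tubule-gated cells (1.5%) had it, a share close to that of zero cells. The levels were 76.0 against 2.46 CPM at day 7 (log2 4.48, 4.10 to 4.86) and 83.0 against 2.59 CPM after reversal (log2 4.55, 3.84 to 5.24). No cell held more than 14 UMIs. The day 2 level, 18.9 against 2.25 CPM, was under the 50 CPM needed to be counted among the genes compared. Thinned to 2000 UMIs per cell, the Dcstamp share was 3.57%, 12.1% and 10.1% in the 3 UUO libraries.

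**Figure D2:**
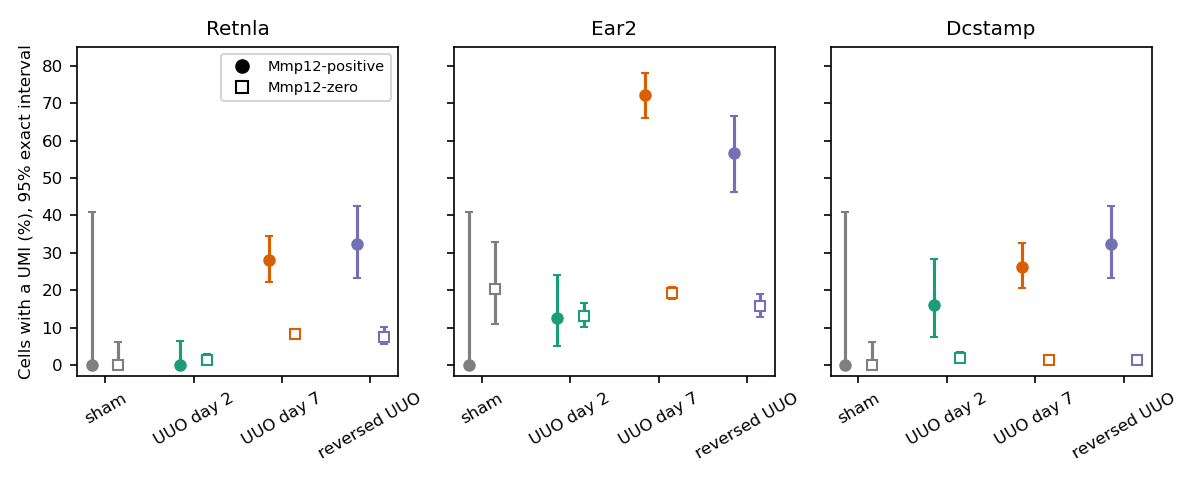
Percentage of cells with at least 1 UMI of Retnla, Ear2 and Dcstamp in Mmp12-positive (filled circles) and Mmp12-zero (open squares) cells of each library, with exact 95% intervals. Retnla and Ear2 stood apart from the zero cells at day 7 and after reversal, where Ear2 reached 72.3% and 56.6%, and did not at day 2.

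Across all genes, Mmp12-positive and Mmp12-zero cells of 1 library were compared by summed UMIs, as the log2 ratio of CPM + 1. A gene was counted as higher or lower if it differed by 2-fold or more, with at least 30 UMIs in both groups together and 50 CPM in the higher group. Of 2758 genes at day 2, 40 were higher (1.45%) and 74 lower (2.68%). At day 7, 82 of 2884 were higher (2.84%) and 209 lower (7.25%), and after reversal 116 of 2821 were higher (4.11%) and 208 lower (7.37%). The excess of lower genes at the later times depended on scaling. With TMM factors the split was 178 higher and 141 lower at day 7 and 221 and 106 after reversal, and with DESeq2 size factors 154 and 151, and 202 and 123. These factors moved every log2 ratio up by 0.25 to 0.34 at the later times and by no more than 0.03 either way at day 2.

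Zero cells included many without a Csf1r UMI, at 24.1%, 30.2% and 33.0% at day 2, day 7 and after reversal, against 7.14%, 15.6% and 11.1% of positive cells, a gap that was smaller at equal depth, as given above. Zero cells also held more neutrophil and natural killer RNA, given below. Each comparison below was therefore also run in both groups on cells with a Csf1r UMI, at least 0.5% of UMIs from the 3 phagocyte gate genes, under 20 UMIs of S100a8 and S100a9 together and under 3 of Ncr1, Klrb1c and Gzma, a restriction chosen after seeing the data. It left 37 and 279 cells at day 2, 180 and 1415 at day 7, and 85 and 316 after reversal, positive and zero in turn. Values from it are called restricted. In these cells 38, 86 and 107 genes were higher, of which 27, 54 and 74 were among those above, and 80, 134 and 175 were lower, of which 42, 44 and 49 were among those above. Most of the lower genes at day 7 and after reversal were therefore not called in the restricted cells. Without the top 2 cells of each group, 13 genes were higher at day 2, 65 at day 7 and 73 after reversal.

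The 12 largest increases shared by the UUO libraries included receptors and lipid genes, and 8 of them were 2-fold or more higher at all 3 times. Ccl17, among these 8, was under 2-fold higher at day 2 and after reversal without 2 positive cells, as given below. The 12 genes were ranked on these same ratios, which are therefore descriptions. Any of them under 50 CPM in zero cells passed the filter through the positive cells alone and was bound to be higher. This was not marked gene by gene, and Itgax in zero cells at day 7 lay at the limit. Mgl2 (CD301b, a galactose-binding lectin) stood at 605 against 178 CPM at day 2, 1453 against 327 at day 7 and 804 against 258 after reversal, log2 ratios of 1.76, 2.15 and 1.63. Tnip3, an inhibitor of NF-κB signalling, had ratios of 1.80, 2.92 and 1.67. Itgax, which encodes the integrin CD11c, stood at 157 against 73.5 CPM, 288 against 50 and 279 against 53.9, ratios of 1.09 (0.79 to 1.38), 2.50 (2.35 to 2.65) and 2.35 (2.11 to 2.60), and was as high in the restricted cells (1.29, 2.34 and 2.49). Other receptors in this set were Axl, which binds apoptotic cells through Gas6 (1.15, 1.16 and 1.16), and the C-type lectins Clec4b1 (0.98, 1.44 and 1.51) and Clec4n (Dectin-2; 0.95, 1.69 and 2.18). The immunoglobulin-like receptor gene Lilr4b had ratios of 0.92, 1.75 and 1.45.

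The Axl difference was smaller among Csf1r-positive phagocytes, with restricted ratios of 0.99, 0.59 and 0.31, all under 2-fold. The restricted Mgl2 ratio after reversal was 0.92. Ccl17, a chemokine that draws Ccr4-bearing T cells, stood at 797 against 323 CPM at day 2, 1090 against 215 at day 7 and 1219 against 320 after reversal, with 50.8%, 27.6% and 54.3% of the positive UMIs in 2 cells. Without these 2 cells the positive levels were 392, 789 and 557 CPM, under 2-fold over all zero cells at day 2 and after reversal. The restricted ratios of Ccl17 were larger, at 2.45, 3.33 and 3.68. AA467197 (1.20, 2.35 and 2.67), Phlda1 (1.15, 1.33 and 1.33) and Pltp, the phospholipid transfer protein (1.10, 1.17 and 1.78), completed the 12 genes together with Lpl.

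Lpl, lipoprotein lipase, which frees fatty acids from triglyceride, stood at 389 against 198 CPM at day 2 (log2 0.97, 0.79 to 1.16), 1127 against 161 at day 7 (2.80, 2.72 to 2.88) and 1372 against 186 after reversal (2.87, 2.75 to 3.00). It was found in 66.1%, 75.9% and 88.9% of positive cells and in 36.7%, 40.0% and 43.4% of zero cells. The groups differed at all 3 times, by more at the later 2, and the restricted ratios were 0.87, 2.42 and 2.28.

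**Figure D3:**
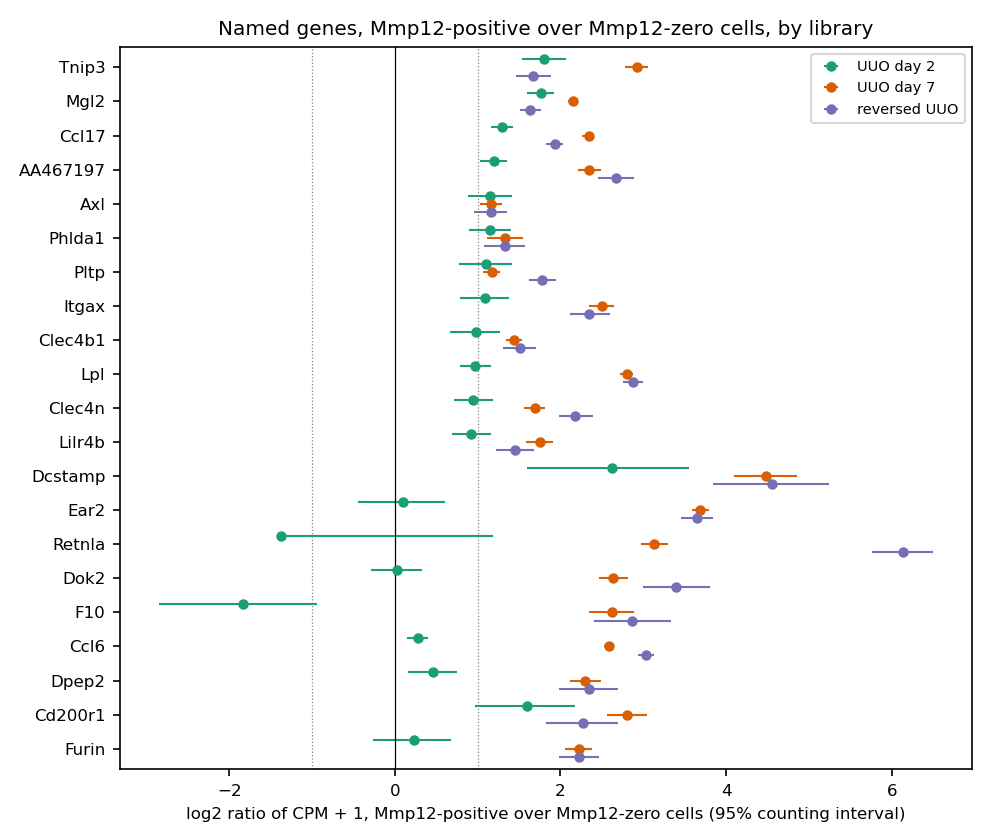
Log2 ratio of CPM + 1, Mmp12-positive over Mmp12-zero cells, for named genes in the 3 UUO libraries, with 95% counting intervals. The dotted lines mark 2-fold; Dcstamp, Ear2, Retnla, Dok2 and Ccl6 stood above 2-fold at day 7 and after reversal (Ccl6 at 2.58 and 3.03) and, except for the sparse Dcstamp, near or below 0 at day 2.

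A second set differed more at day 7 and after reversal than at day 2, and is named after its values were seen. Dok2, an adaptor that dampens receptor signalling, had ratios of 0.03 at day 2, 2.64 at day 7 and 3.40 after reversal. Ccl6, a myeloid chemokine, stood at 741 against 611 CPM at day 2, 2261 against 378 at day 7 and 2288 against 280 after reversal, ratios of 0.28, 2.58 and 3.03. Dpep2 (0.46, 2.30 and 2.34) and Furin, a protein convertase (0.23, 2.22 and 2.22), had the same pattern. F10, coagulation factor X, stood at 10.7 against 40.6 CPM at day 2, then at 86.3 against 13.2 and 95.7 against 12.3. Cd200r1, an inhibitory receptor, stood at 42.6 against 13.5, 111 against 15 and 87.9 against 17.5 CPM, and was thus also higher at day 2, though under the 50 CPM needed to be counted. Restricted ratios of these 6 genes at the later times were between 1.77 and 3.41. Dok2 (35.2 and 14.4 CPM in zero cells), F10 and Cd200r1 passed the filter at the later times through the positive cells alone. They were thus bound to be higher there, and their ratios are descriptions.

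Fn1, fibronectin, changed sides between libraries. It stood at 117 against 219 CPM at day 2 (log2 -0.90, -1.21 to -0.60), 404 against 98.5 at day 7 (2.03, 1.91 to 2.14) and 425 against 59.9 after reversal (2.80, 2.59 to 3.02), and restricted ratios were -0.90, 2.81 and 3.29. In positive cells 26.8%, 50.4% and 44.4% had an Fn1 UMI, against 41.5%, 17.7% and 13.1% of zero cells.

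In the lists that follow, measured members are those past the filter on UMIs and CPM. A gene can pass it through the positive cells alone, and is then bound to be higher, or through the zero cells alone, and is then bound to be lower, so the measured members differ between libraries and their counts and medians are descriptions. Among alternative activation genes, a list of 14, 2 of 6 measured members were higher at day 2 (Mgl2 and Ccl17), 3 of 8 at day 7 (Retnla, Mgl2 and Ccl17) and 4 of 8 after reversal (those 3 and Ccl22, with 64.1% of its UMIs in 2 cells), while Chil3 was lower at the first 2 times and Clec10a after reversal. The medians were 0.08, 0.45 and 0.77, against 0.046, -0.060 and -0.102 over all genes compared. Retnla and Ccl22 at the later times, and Il4ra after reversal, passed the filter through the positive cells alone, while Chil3 and Il4ra at day 7 and Clec10a after reversal passed it through the zero cells alone. Over the 6 members measured in all 3 UUO libraries, 2 were higher and 1 lower at each time, with medians of 0.08, 0.45 and 0.07. Mrc1, the mannose receptor CD206, was at -0.01, 0.37 and -0.06. Chil3 (Ym1), another gene of this list, stood at 101 against 678 CPM at day 2 (log2 -2.74) and 6.06 against 65.4 at day 7 (-3.23). At day 2, where none of the 6 passed through 1 group alone, Mgl2 and Ccl17 were thus higher and Chil3 lower, with restricted ratios of 1.97, 2.45 and -2.63. The Ccl17 counts rested on few cells. Without its top 2 positive cells Ccl17 was at 392 CPM at day 2 and 557 after reversal, against 323 and 320 in zero cells, under 2-fold.

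On the list of 12 cell fusion and osteoclast genes, Dcstamp and Acp5 were higher at day 7 and after reversal among 5 measured members. Both passed the filter through the positive cells alone and neither passed it at day 2, and the other 3 members were under 2-fold at all 3 times. Acp5, tartrate-resistant acid phosphatase, an osteoclast enzyme, stood at 35.5 against 35.4 CPM at day 2, 93.3 against 37.9 at day 7 (log2 1.28) and 266 against 48.5 after reversal (2.43), with restricted ratios of 0.95 and 1.91 at the later times. Of 11 genes linked to GM-CSF or PPARγ, 0 of 3 measured members were higher at day 2, 2 of 4 at day 7 and 3 of 4 after reversal. Il1rn, the interleukin-1 receptor antagonist, had ratios of -0.20, 1.57 and 1.97, and the receptor chain Csf2rb had 0.22, 1.03 and 1.33, with Csf2ra at 1.01 after reversal. Il1rn passed the filter at the later times through the positive cells alone. Fabp4, a fatty acid carrier, was lower at day 7 (-1.23), and Marco and Krt79 were at 0 in positive cells of all 3 libraries. Pparg was low, found in 21.4%, 19.2% and 21.2% of positive cells against 9.11%, 7.32% and 9.44% of zero cells, and at 2000 UMIs per cell in 1.79%, 5.80% and 5.05% against 2.51%, 2.29% and 3.45%.

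Of the 14 lipid-associated macrophage genes, 0 of 10 measured members were higher at day 2, 3 of 11 at day 7 (Lpl, Lgals3 and Cd36) and 7 of 13 after reversal (Trem2, Gpnmb, Fabp5, Lpl, Lgals3, Abca1 and Cd36), with medians of -0.02, 0.65 and 1.22. Over the 10 members measured in all 3 libraries, 0, 3 and 5 were higher, with medians of -0.01, 0.44 and 1.18, and Cd36 at day 7 and Gpnmb and Abca1 after reversal passed the filter through the positive cells alone. Lgals3, galectin-3, stood at 1366 against 1265 CPM, 2015 against 736 and 3137 against 711, ratios of 0.11, 1.45 and 2.14. Cd36, a fatty acid and scavenger receptor, had 0.76, 1.35 and 2.17. Trem2, a lipid-sensing receptor, had -0.02, 0.09 and 1.37 (1.16 to 1.57), and 0.52 after reversal in the restricted cells. Gpnmb was at 0 in the 56 day 2 cells, at 2.80 CPM at day 7 and at 138 against 5.17 CPM after reversal (log2 4.49), where 12 of 99 cells had a UMI and 2 of them held 67.4% of the UMIs. Without these 2 cells the positive Gpnmb level was 44.9 CPM, under the 50 CPM needed to be counted.

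Spp1 and Apoe, on the same list, were not higher. Spp1, osteopontin, which injured tubule cells also make, stood at 3724 against 5444 CPM at day 2, 1564 against 8783 at day 7 (log2 -2.49) and 1897 against 2123 after reversal (-0.16). The restricted ratios of Spp1 were -0.71, -0.17 and 2.12, so both later values depended on the restriction, which was applied to both groups. Apoe, apolipoprotein E, stood at 1057 against 2651, 5154 against 10277 and 8048 against 11940 CPM, ratios of -1.33 at day 2 and -0.57 after reversal, and was lower in the restricted cells too (-1.42, -1.72 and -1.45).

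Of 18 matrix proteases and inhibitors other than Mmp12, 0 of 5 measured members were higher and 2 lower at day 2 (Timp3 and Slpi), and 3 of 7 were higher and 1 lower (Timp3) at each later time. The higher members were Adam8 and Plaur at both later times, with Timp1 at day 7 and the inhibitor Timp2 after reversal. Timp2 was past the filter in both groups. Over the 4 members measured in all 3 libraries, 0, 2 and 3 were higher, with medians of 0.12, 0.85 and 1.59. Adam8 at all 3 times, Plaur and Adam17 at day 7, and Plaur and Timp1 after reversal passed the filter through the positive cells alone, and Timp3 and Slpi at day 2 and Timp3 at day 7 through the zero cells alone. Restricted ratios of Timp3 were 0.29, -0.70 and -0.58, so its direction turned at day 2 and the later values were under 2-fold. Adam8, a membrane protease, had ratios of 0.64, 2.20 and 2.13, and Plaur, the urokinase receptor, -0.15, 1.47 and 2.08. The day 7 ratio of the inhibitor Timp1 (1.34) rested on 2 cells with 83.0% of its UMIs and was -0.59 without the top 2 cells of each group. Mmp14, the membrane collagenase, had 0.70, -0.22 and 0.63. Of 10 cathepsins, the lysosomal proteases, 9 were measured and 0, 0 and 2 were higher, while Ctsl was lower at day 7 (-1.54). The 2 were Ctsd (431 against 458, 555 against 550 and 1809 against 595 CPM) and Ctsz (941 against 745, 1101 against 662 and 1420 against 663 CPM).

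For scavenger and matrix uptake genes, 2 of 8 were higher at day 2 (Axl and Itgax), 3 of 8 at day 7 (those and Itgb2) and 5 of 10 after reversal (with Msr1 and Mfge8 added), with medians of 0.11, 0.38 and 0.94. Msr1 and Mfge8 passed the filter after reversal through the positive cells alone, and over the 7 members measured in all 3 libraries 2, 3 and 3 were higher, with medians of 0.05, 0.44 and 0.73. The Mfge8 ratio after reversal (1.27) rested on 2 cells with 74.2% of its UMIs and was -0.47 without the top 2 cells of each group. Gas6, the ligand of Axl, was lower at day 7 (log2 -2.16) and after reversal (-1.40), with restricted ratios of -1.81 and -1.35, and Itgav was lower at day 7 (-1.12). Both genes passed the filter through the zero cells alone at these times. Growth factor and repair genes had 0 of 4, 1 of 6 (Fn1) and 4 of 7 higher (Igf1, Areg, Fn1 and Tgfbi, with Sparc lower). Over the 4 members measured in all 3 libraries, 0, 1 and 2 were higher, with medians of -0.01, 0.56 and 0.93, and Areg passed the filter through the positive cells alone. Areg, amphiregulin, a ligand of the EGF receptor, stood at 3.55, 1.40 and 89.8 CPM in positive cells. After reversal 12 of 99 cells had it, with 54.3% of its UMIs in 2 cells, against 1.94 CPM in zero cells (log2 4.95, 4.20 to 5.65). Without these 2 cells the positive Areg level was 41 CPM, under the 50 CPM needed to be counted. Igf1 after reversal was at 1.00, and at 0.42 in the restricted cells.

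Inflammatory mediators had 1 of 6 members higher at day 2 (Tnf, 1.05), 1 of 5 at day 7 (Cxcl2, 1.01) and 3 of 7 after reversal (Tnf 1.14, Cxcl1 2.66 and Cxcl2 1.22). Tnf at both times and Cxcl1 passed the filter through the positive cells alone, and over the 5 members measured in all 3 libraries 0, 1 and 1 were higher, with medians of 0.35, 0.61 and 0.09. Nos2, inducible nitric oxide synthase, was at 0 in the positive cells of all 3 UUO libraries. Interferon response genes had none higher and 2 of 5, 2 of 10 and 3 of 9 lower, with 3, 3 and 4 measured through the zero cells alone. Over the 5 measured in all 3 libraries, 2, 1 and 1 were lower, with medians of -0.50, -0.66 and -0.54. Irf7, a master interferon regulator, had -2.03, -1.22 and -0.92. The 8 MHC class II genes, which present antigen, had 0 of 7 higher or lower at day 2, 0 of 7 at day 7 and 0 of 8 higher after reversal, where only H2-Oa was lower, having passed the filter through the zero cells alone. Their medians were 0.20, 0.48 and 0.12.

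**Figure D4:**
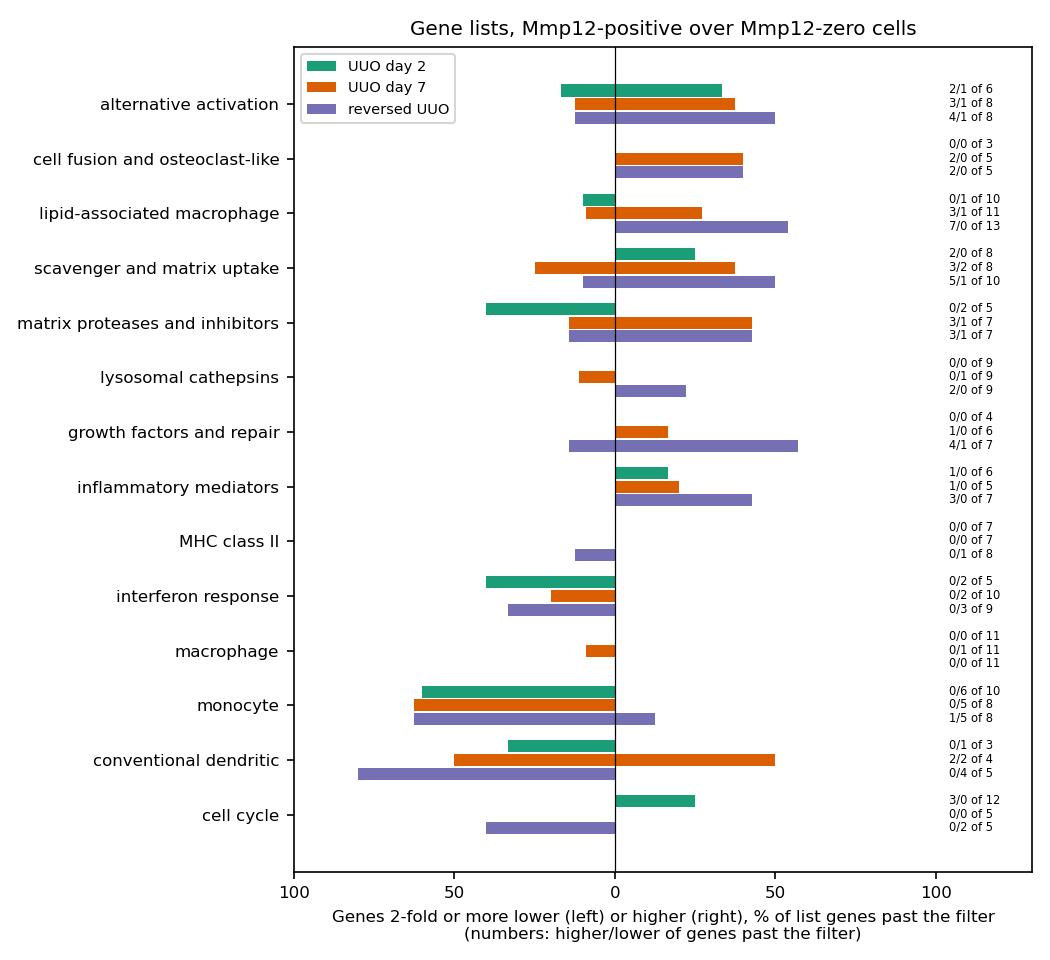
Percentage of the measured genes of each list that were 2-fold or more higher (right) or lower (left) in Mmp12-positive than in Mmp12-zero cells, by library, with the counts at the right. Measured members differ between libraries. The lipid-associated list had 0 of 10 higher at day 2 and 7 of 13 after reversal (0 and 5 of the 10 measured in all 3 libraries), and the monocyte list had 6 of 10, 5 of 8 and 5 of 8 lower (4, 5 and 5 of the 8 measured in all 3 libraries).

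Monocyte genes were lower in Mmp12-positive cells in 6 of 10, 5 of 8 and 5 of 8 measured members. Over the 8 measured in all 3 libraries, 4, 5 and 5 were lower, with medians of -1.47, -1.54 and -1.68. Through the zero cells alone passed 5, 2 and 3 measured members, Ly6c2 and Hp at all 3 times. S100a6, on the same list, was higher after reversal (1.01). Ly6c2, the defining gene of inflammatory monocytes, stood at 4.73 against 142 CPM at day 2, 19.6 against 106 at day 7 and 29.3 against 83.4 after reversal, ratios of -4.64, -2.38 and -1.48. After reversal 2 cells held 83.3% of these UMIs. Plac8 had -3.66, -2.21 and -3.05, haptoglobin (Hp) -3.93, -2.47 and -2.26, and the transcription factor Klf2, which is on no list, -2.09, -1.64 and -1.57. Restricted ratios of Ly6c2, Plac8, Hp and Klf2 were between -4.81 and -1.52. Ccr2, the chemokine receptor of monocyte-derived cells, was not among the lower genes, at -0.56, 0.70 and 0.59, and was found in 83.9%, 92.9% and 78.8% of positive and 79.0%, 63.5% and 55.7% of zero cells. At 2000 UMIs per cell these shares were 55.4%, 75.4% and 59.6% against 56.9%, 46.2% and 42.8%, close at day 2.

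Macrophage genes differed little when all zero cells served as the comparator, with 0 of 11, 1 of 11 (Adgre1, lower) and 0 of 11 past 2-fold and medians of 0.15, -0.41 and -0.03. C1qa stood at 2434 against 1397 CPM at day 2 (log2 0.80), 2155 against 2859 at day 7 (-0.41) and 2333 against 2593 after reversal (-0.15). In the restricted cells C1qa was at 0.57, -1.11 and -1.08 and Adgre1 at -0.28, -1.87 and -1.59. Against other Csf1r-positive phagocytes, positive cells at the later times therefore held less C1qa and Adgre1 RNA. Summed UMIs cannot tell fewer cells with a transcript from less RNA per cell. In the 7 sham cells C1qa stood at 4824 against 1629 CPM (log2 1.57, 1.27 to 1.85).

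Of conventional dendritic genes, 1 of 3 was lower at day 2. At day 7, 2 of 4 were higher and 2 of 4 lower (Irf8 and Fscn1), and after reversal 4 of 5 were lower. Batf3 at day 2, Fscn1 at day 7, and Clec9a and Xcr1 after reversal passed the filter through the zero cells alone. Over the 3 measured in all 3 libraries (Cd209a, Irf8 and Batf3), 0, 2 and 0 were higher and 1, 1 and 2 lower, with medians of -0.81, 1.12 and -1.06. Cd209a had -0.81, 1.23 and -1.45, Xcr1 stood at 2.93 against 76.5 CPM after reversal, and Irf8 had -1.08, -1.02 and -1.06. None of the 4 genes lower after reversal passed 2-fold in the restricted cells, where Cd209a was at 0.23, Clec9a at 0.25, Xcr1 at -0.93 and Irf8 at -0.62. Cell cycle genes had 3 of 12 higher at day 2 (Top2a, 2810417H13Rik and Rrm2; median 0.80), 0 of 5 at day 7 and 2 of 5 lower after reversal (Stmn1 and 2810417H13Rik, the latter measured through the zero cells alone). Over the 5 members measured at all 3 times, 2, 0 and 0 were higher. Restricted ratios of these genes were under 2-fold, at 0.91, 0.68 and 0.77 for Top2a, 2810417H13Rik and Rrm2 at day 2 and -0.56 and -0.58 for Stmn1 and 2810417H13Rik after reversal. At 2000 UMIs per cell, 69.6% of day 2 positive cells held 2 or more cell cycle UMIs, against 49.2% of zero cells. At day 7 the same shares were 34.4% and 36.6%, and after reversal 35.4% and 31.9%.

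The remaining genes with the largest decreases were mostly known from other cell types. Aqp2 and Ifi205 at all 3 times, and S100a8, S100a9 and Lcn2 after reversal, passed the filter through the zero cells alone. Neutrophil S100a8 had ratios of -3.38, -1.72 and -4.25, S100a9 -3.54, -1.62 and -4.11, and the injury gene Lcn2 -1.78, -2.80 and -3.29. In the restricted cells the same genes were between -0.48 and 0.05, where the restriction itself removed cells rich in S100a8 and S100a9. Aqp2 of the collecting duct had -3.27, -2.89 and -2.00, and -0.61, -0.88 and -1.19 restricted, and the interferon-inducible Ifi205 had -3.22, -1.70 and -4.02, and -0.95, -1.32 and -1.46 restricted. Summed neutrophil markers stood at 244 against 2036, 302 against 1165 and 73.2 against 959 CPM, with Ngp at 0 in positive cells at all 3 times. Natural killer markers stood at 11.8 against 360, 37.8 against 214 and 13.7 against 76.1 CPM, with Ncr1 at 0, 0.466 and 0 CPM. Proximal tubule markers stood at 1442 against 1563, 427 against 1742 and 2548 against 4273 CPM, with none of the 6 at 0. The part of these cells or of free tubule RNA in the ratios of other genes was not tested beyond the restricted values.

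Between time points, positive cells of different libraries were compared in the same way, with the value in zero cells beside those of most genes named. Here too a gene that passed the filter through 1 of the times alone was bound to differ. In positive cells Ear2, Retnla, Dcstamp and Lyz1 passed it through day 7 alone, so their increases from day 2 are descriptions. Of 2862 genes, 185 were higher at day 7 than at day 2 (6.46%) and 199 lower (6.95%), against 9.18% and 3.93% of the 3006 compared in zero cells. Ear2 went from 43.8 to 881 CPM (log2 4.30, 3.84 to 4.80), against 0.71 in zero cells. Retnla went from 0 to 275 CPM, at least 77.3-fold higher over a floor of 3 UMIs in the summed day 2 cells, while zero cells went from 1.58 to 30.4 CPM. Dcstamp had 1.95 against 0.09 in zero cells, Lpl 1.53 against -0.29, Ccl6 1.61 against -0.69 and Fn1 1.78 against -1.15. Fcrls (4.04 against 1.08) and Lyz1, a second lysozyme gene (5.10 against -1.10), were among the 8 largest increases. Apoe was 2.28 higher, with 1.95 in zero cells.

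The other large increases from day 2 to day 7 included collagens, which macrophages are not known as a main source of. Col1a2 was at 6.38, Col3a1 at 5.18, Sparc at 4.54 and Col1a1 at 4.66, with 75.2% to 90.6% of their day 7 UMIs in 2 cells, and zero cells showed 4.90 to 7.29. Summed fibroblast markers went from 9.47 to 376 CPM in positive cells and from 7.44 to 784 CPM in zero cells. The part of fibroblast RNA in these values was not tested. Col3a1, Sparc and Col1a1 passed the filter through day 7 alone in positive cells.

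Cell cycle genes were lower at day 7 than at day 2 in 12 of 12 measured members, of which 7 passed the filter through day 2 alone. Over the 10 members measured in both kinds of cell, 10 were lower in positive cells (median -2.28) and 6 in zero cells (-1.25). Among the 8 largest decreases, Pbk (-3.20), Tk1 (-3.02), Cdca3 (-2.97), Rrm2 (-2.91), Aurkb (-2.78) and Asf1b (-2.76) act in DNA synthesis and mitosis, and zero cells showed -1.91 to -1.44. The others were Chil3 (-3.85, zero cells -3.35) and Ppbp (-3.70, zero cells -0.66, with 91.3% of its day 2 UMIs in 2 cells). The chemokines Cxcl2, Ccl2, Ccl3 and Ccl4 were lower (-1.24 to -1.08), with -1.83 to -1.26 in zero cells. Over the 7 MHC class II genes measured in both kinds of cell, 4 were higher in positive cells (median 1.11) and 1 in zero cells (0.90), and Ciita, their transactivator, passed through day 7 alone in the positive cells. H2-Ab1 went from 5805 to 13223 CPM (log2 1.19) and in zero cells from 5072 to 9470 CPM (0.90). C1qa was at -0.18, while zero cells stood at 1.03.

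From day 7 to reversed UUO fewer genes differed: 78 of 2616 were higher (2.98%) and 42 lower (1.61%), against 1.31% and 0.919% of the 2830 compared in zero cells. Several Mmp12-associated genes stayed near their day 7 level, with Ear2 at -0.16 (-0.28 to -0.04), Dcstamp 0.13 (-0.27 to 0.51), Lpl 0.28, Fn1 0.07 and Itgax -0.04. Zero cells had -0.11, 0.05, 0.21, -0.71 and 0.11 for the same 5 genes. Mgl2 was at -0.85, with -0.34 in zero cells. Mmp12 itself was at 0.71. Retnla was at 1.75, with -1.24 in zero cells, but at 0.64 without the top 2 cells of each group, under 2-fold. Areg (5.24, zero cells 0.17), Gpnmb (5.19, 1.00), H2-M2 (4.51, -0.17, with 56.0% of its later UMIs in 2 cells) and Clec4d (2.98, 0.90) were among the 8 largest increases. Without their top 2 cells Areg, Gpnmb and H2-M2 were at 41, 44.9 and 46.9 CPM after reversal, under the 50 CPM filter. Chil3 was also among the 8 (3.15, zero cells -0.06), but 98.4% of its UMIs after reversal were in 2 cells and the ratio was -1.63 without them. The other 3, Slc34a1 (3.43), Miox (3.42) and Gpx3 (3.01), are proximal tubule genes, which zero cells also held more of (1.80 to 2.16) and of which endothelial-gated cells held 2143 against 267 CPM for Gpx3. Areg, Gpnmb, H2-M2, Chil3, Slc34a1 and Miox passed the filter through the reversed cells alone and were thus bound to be higher.

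Lipid-associated genes were higher after reversal than at day 7 in 6 of 13 measured members (median 0.85), among them Gpnmb and Abca1, which passed the filter through the reversed cells alone. Over the 11 members measured in both kinds of cell, 4 were higher in positive cells (median 0.64) and none in zero cells (0.21), where 1 was lower. Trem2 went from 85.3 to 296 CPM (log2 1.78, zero cells 0.51), Fabp5 from 80.2 to 577 (2.83, 0.17), Cd36 from 118 to 312 (1.39, 0.57), Abca1 from 31.2 to 94.7 (1.57, 0.02) and Cd63 from 391 to 890 (1.18, -0.08). The fatty acid carrier Fabp5 had 46.9% of its later UMIs in 2 cells. Cathepsins Ctsb, Ctsd and Ctsl were higher (1.20, 1.70 and 1.07), with 0.20, 0.11 and -0.40 in zero cells. The largest decreases were Col1a2 (-4.73), Col3a1 (-4.41), Col1a1 (-4.40), Sfrp1 (-3.62), Ifitm1 (-3.04), Klrd1 (-2.73), Serpinh1 (-2.69) and S100a9 (-2.63). In zero cells the collagens and Sfrp1 were lower too (-2.99 to -1.76), as was Ifitm1 (-1.58), while Klrd1, Serpinh1 and S100a9 had -0.01, -0.35 and -0.15. At day 7, 2 cells had held 83.3% to 90.6% of the UMIs of each of these collagens.

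The Mmp12-positive cells were not uniform. Of Retnla, Ear2 and Dcstamp, none was detected in 42 of 56 cells at day 2, 48 of 224 at day 7 and 31 of 99 after reversal, and all 3 were detected in 0, 16 and 12 cells. At day 7 Ear2 was seen in 53 of 63 Retnla-positive cells (84.1%) and 109 of 161 others (67.7%), and after reversal in 24 of 32 (75.0%) and 32 of 67 (47.8%). Dcstamp went with Ear2, in 32.7% of Ear2-positive and 9.68% of Ear2-negative cells at day 7 and in 44.6% and 16.3% after reversal. Fn1 did as well: Ear2 was seen in 87.6% of cells with Fn1 and 56.8% without at day 7, and in 77.3% and 40.0% after reversal. These are descriptions within 1 library, and cells with a marker were deeper in some of them (after reversal a median of 12938 UMIs with Retnla and 7744 without).

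Gpnmb seldom coincided with Retnla or Ear2 after reversal. Of 99 cells, 1 had both Gpnmb and Retnla, 11 had Gpnmb alone, 31 Retnla alone and 56 neither. Only 2 of the 12 Gpnmb cells had Ear2, against 54 of the other 87. Trem2 was detected in 10 of the 12, which had a median of 16854 UMIs. The cells richest in Gpnmb had 57, 38 and 17 UMIs and the cells richest in Retnla 313, 293 and 107, and these were different cells. Gpnmb was found in 3.12% of cells with Retnla (0.0791 to 16.2) and 16.4% of those without (8.49 to 27.5). With and without Ear2 it was found in 3.57% (0.435 to 12.3) and 23.3% (11.8 to 38.6). The intervals overlapped in both cases, so separate subsets cannot be told from these few cells.

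**Figure D5:**
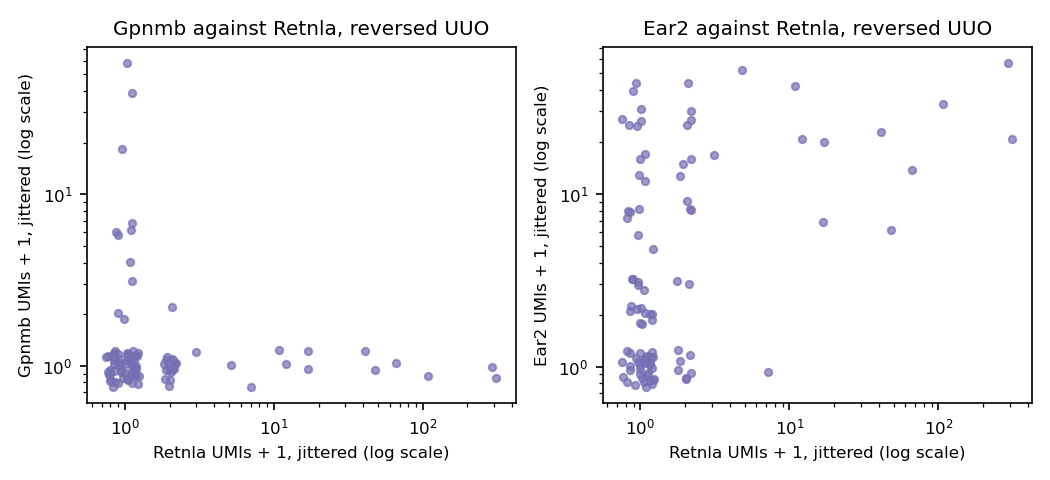
UMIs + 1 per cell in the 99 Mmp12-positive cells of the reversed UUO library on log axes, with small random offsets to separate points: Gpnmb against Retnla (left) and Ear2 against Retnla (right). Gpnmb was found in 12 cells, 1 of them with Retnla, and 24 of 32 Retnla cells also had Ear2.

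Within day 7, levels of the companion genes differed with the number of Mmp12 UMIs. In cells with 0, 1, 2, 3 to 4, 5 to 14 and 15 or more Mmp12 UMIs (2488, 269, 31, 39, 100 and 54 cells), Dcstamp stood at 2.46, 5.15, 13.9, 39.1, 39.1 and 177 CPM. Lpl stood at 161, 246, 274, 628, 587 and 2549 CPM. Ear2 (67.3, 182, 284, 1121, 924 and 965 CPM) and Retnla (30.4, 43.3, 65.9, 403, 301 and 266 CPM) levelled off from 3 to 4 Mmp12 UMIs. Cells with 1 or 2 Mmp12 UMIs thus lay between zero cells and the rest for all 4 genes. Median depth went from 6691 UMIs at 0 to 11043 at 15 or more, and CPM is per UMI of the cells summed. After reversal Lpl stood at 186, 282, 406, 245, 1135 and 1838 CPM, and Ear2 at 62.3, 135, 669, 620, 979 and 716 CPM, over 551, 51, 12, 14, 36 and 37 cells. Dcstamp stood at 2.59, 22.5, 47.8, 0, 98.8 and 90.7 CPM there and Retnla at 12.3, 363, 227, 155, 320 and 1532 CPM. The levels did not rise at every step, nor did they at day 7. At day 2 a rise with Mmp12 UMIs was not seen for Ear2 (40.8, 37.9, 122, 49.6, 23.3 and 0 CPM) or Retnla, which was at 0 in all 5 groups with an Mmp12 UMI. Dcstamp stood at 2.25, 9.48, 27.2, 4.96, 20.7 and 27.2 CPM at day 2 and Lpl at 198, 338, 278, 372, 254 and 1042 CPM, over 439, 25, 11, 13, 27 and 5 cells.

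The Smart-seq2 wells were not used by the rule and gave a look at separate cells, though from the same experiment and with time points that the labels do not assign to wells. Of 501 wells that met a matching gate, 50 had at least 10 Mmp12 reads, 213 had none and 238 had 1 to 9. Positive wells were on all 8 plates and had a median of 391453 reads, against 24333 in zero wells, so the wells were also compared with at least 100000 reads in both groups (43 and 81 wells). Itgax stood at a mean of 571 against 140 CPM (log2 2.02) and was read in 92% of positive and 57.3% of zero wells, with 1.89 in the deep wells. Mean levels of Lpl (1.10, deep 1.22) and Tnip3 (1.54, deep 1.97) were also higher, with reads in 97.7% against 75.3% and in 58.1% against 30.9% of the deep wells. Adam8 (1.67, deep 2.04) and Axl (1.07, deep 1.07) had higher means, but in the deep wells Adam8 was read in 46.5% against 49.4% and Axl in 93% against 95.1%.

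Mean levels of 3 monocyte genes were lower in the wells, Plac8 at 44.2 against 279 CPM, Ly6c2 at 6.51 against 53.7 and Hp at 1.27 against 70.7, while Csf1r and C1qa were at 0.03 and 0.08. The shares of wells with a read were 60% against 62.4% for Plac8, 28% against 20.2% for Ly6c2 and 16% against 30.5% for Hp, so the share was lower with the mean for Hp, close for Plac8 and not lower for Ly6c2. In the deep wells these shares were 62.8% against 60.5%, 25.6% against 21% and 16.3% against 27.2%. The later droplet markers gave mixed values. Ear2 stood at 215 against 225 CPM (52% and 49.3% of wells, deep ratio -0.28), and Retnla was read in 4% and 2.82% of wells. Dcstamp was read in 12% of positive wells (4.53 to 24.3) and 1.41% of zero wells, with 92.1% of its reads in 2 wells. In the deep wells the shares were 14% against 2.47% for Dcstamp and 4.65% against 4.94% for Retnla. Of the second set, Dok2 (1.39, deep 2.20), Ccl6 (0.95, deep 1.15), Furin (0.88, deep 1.02) and Cd200r1 (0.89, deep 0.56) had higher means, Dpep2 was at -0.26 (deep 0.08) and F10 at -3.74 in both. Of the other genes named for all UUO libraries, Mgl2 was at 0.76 (deep 0.44), Pltp at 0.54 (deep 0.77), Clec4n at 0.15 (deep -0.15) and Clec4b1 at -0.23 (deep 0.35). Phlda1 (2.09, deep 2.83), AA467197 (2.11, deep 3.08) and Ccl17 (4.47, deep 4.88) had higher means. They were read in only 24%, 24% and 8% of positive wells and in 4.69%, 12.2% and 3.29% of zero wells. In the deep wells these shares were 27.9%, 25.6% and 9.3% against 8.64%, 11.1% and 4.94%. Areg had no reads. Reads carry no molecular identifiers, so these values are not counts of molecules.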

How the data were processed

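Cells of 4 droplet libraries (10x 3' V2, live cells sorted with DAPI after digestion on ice, per the labels' protocols) and wells of 1 Smart-seq2 sample were analysed. The authors deposited UMI counts per gene and cell and, for the wells, read counts per gene. Cell Ranger, STAR, GRCm38 and mm10 are named in the submitters' processing notes without a role, and versions are not given in the sources used here. The Smart-seq2 sample carries the droplet protocol text, so its preparation is not stated, and 1.57% of its reads fell on spike-in and EGFP entries, which were left out.

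Counts were summed over positive and zero cells per library, scaled to CPM and compared as log2(CPM + 1), a scale that understates the change of low genes, with exact conditional binomial 95% intervals. Shares carry Clopper-Pearson intervals. Intervals and the floor of 3 counts cover counting error only, and UMI totals set the precision. No test was run. Each group is 1 library, and positive and zero cells were compared within it. Cell gates for the background needed at least 3 UMIs of Pecam1, Emcn and Plvap, or of Lrp2, Slc34a1 and Miox, or 1 of Cd3e. Smart-seq2 wells needed at least 500 genes and 50 reads over the phagocyte genes, and values are means of CPM per well. Doublets were not removed: Scrublet in scanpy 1.11.5 at 0.8% per 1000 deposited cells marked 0, 3, 6 and 0 of the Mmp12-positive cells, and removing marked cells was an alternative.

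The other exclusion gene of the rule is not reported here. Genes are named from 24 lists or as the 12 largest increases and 8 largest decreases by the smallest absolute log2 ratio over the 3 UUO libraries, or as the 8 largest in each direction between time points, leaving out mitochondrial, ribosomal, haemoglobin and rule genes. Other named genes were picked after their values were seen. The members and lists were chosen with earlier results of these data known. The interval code was tested on simulated data. Python 3.11.15, numpy 2.4.6, pandas 2.3.3, scipy 1.17.1, matplotlib 3.10.9, R 4.3.3, edgeR 4.0.16 (TMM factors) and DESeq2 1.42.0 (size factors) were used.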

Additional observations from a re-analysis of the deposited data

Results flagged for a closer look

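For 2 genes of the fixed lists the difference between Mmp12-positive and Mmp12-zero cells changed direction between the 3 UUO libraries, past 2-fold at 1 or more times on each side. The 7 sham cells were left out of this comparison. There Ear2, Lgals3 and Itgb2, which were higher at both later UUO times, stood below the zero cells on 0, 9 and 1 UMIs, and Timp3, which was lower at all 3 UUO times, stood above them on 10 UMIs. This difference between libraries was not tested, since each is 1 library. The cell cycle gene 2810417H13Rik (Pclaf, which binds the replication clamp PCNA) had log2 ratios of 1.07 at UUO day 2, 0.10 at day 7 and -1.54 after reversal. Its levels were 394 against 187 CPM, 61.1 against 56.9 CPM and 19.5 against 58.8 CPM, where it passed the filter through the zero cells alone and was bound to be lower, and the ratios restricted to Csf1r-positive phagocytes were 0.68, -0.30 and -0.58. Cd209a, a lectin gene of type 2 dendritic cells and some macrophages, had -0.81 at day 2, 1.23 at day 7 and -1.45 after reversal, with 341 against 145 CPM at day 7. Its restricted ratios were -0.33, 1.43 and 0.23, so the value after reversal had the other sign there.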

How the results depend on the processing

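No paired analysis over the libraries was made. Positive and zero cells, split by the rule itself, were compared within each library without a test, and each time point has 1 library. Of 24 planned and 7 added alternatives, those below moved a main value. The share of gated cells at day 2 was 15.6% with at least 1 Mmp12 UMI, 7.92% with 5 gate UMIs, and 7.69% and 3.65% with at least 1 and 2 Mmp12 UMIs at 2000 UMIs per cell. At day 7 it was 16.5% with 1 Mmp12 UMI, 6.47% with 3, 6.14% with 5 gate UMIs, 9.08% with 20, 10.3% in the restricted cells, and 8.62% and 4.36% at 2000 UMIs. After reversal it was 21.4% with 1 Mmp12 UMI, 7.84% with 5 gate UMIs, 19.7% in the restricted cells and 9.99% with 2 at 2000 UMIs.

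Counts of genes past 2-fold moved with the filter on level, the scaling and the Mmp12 threshold. Without a CPM filter, or at 10 or 100 CPM, positive over zero cells gave 146, 146 and 22 higher and 565, 377 and 41 lower genes at day 2, 190, 155 and 54 higher and 2634, 1198 and 94 lower at day 7, and 217 and 216 higher (first 2 settings) and 1705, 1215 and 84 lower after reversal. Day 7 over day 2 gave 651, 651 and 79 higher and 462, 462 and 103 lower, and reversed over day 7 gave 210, 210 and 44 higher and 244, 244 and 16 lower. TMM factors gave 178 higher at day 7 and 221 higher and 106 lower after reversal, and DESeq2 factors 154, 202 and 123. At day 2 the number higher was 21 with a pseudocount of 10 CPM, 16 with zero cells weighted by depth, 83 with cells counted equally (120 lower) and 13 without the top 2 cells. Without these cells the number was 73 higher after reversal, 125 lower for day 7 over day 2 and 50 higher for reversed over day 7. With at least 1 Mmp12 UMI there were 20 higher and 49 lower at day 2, 28 and 40 at day 7, and 119 lower after reversal. The restricted cells gave 134 lower at day 7, of which 44 were among the main 209, and 27 lower for reversed over day 7. At 2000 UMIs per cell the share with a UMI was 3.57% for Dcstamp at day 2, 15.6% for Retnla, 51.8% for Ear2 and 12.1% for Dcstamp at day 7, and 16.2%, 40.4% and 10.1% after reversal.

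Of 4236 recomputed log2 values of named genes, taken over the 338 main values past 2-fold, 3072 stayed within the counting interval, 1143 left it with the same sign and 21 changed sign. In the restricted cells these were Gzma 0.29, Lcn2 0.05 and Timp3 0.29 at day 2, Slc12a1 1.13 at day 7, Cd209a 0.23 and Clec9a 0.25 after reversal, and Chil3 -1.20 and Timp1 0.13 for reversed over day 7. Without the top 2 cells they were Timp1 -0.59 at day 7, Mfge8 -0.47 after reversal and Chil3 -1.63 for reversed over day 7. With at least 1 Mmp12 UMI they were Dcn 0.53 at day 7, Igkc 2.52 after reversal, Fxyd2 0.17, Spp1 0.34 and Umod 0.89 for day 7 over day 2, and Ctsl -0.19 for reversed over day 7. With marked doublets removed they were Igkc 0.00 and Timp1 -0.68 at day 7 and Timp1 0.23 for reversed over day 7, and with at least 3 Mmp12 UMIs Timp1 was -0.76 at day 7. Except where an alternative removes cells or genes by construction, the cause was not tested. The 7 sham cells allow no more than single values.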

Other observations

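A few genes of the reversed library that no list held stood out in level and rested on small numbers of cells. Lyz1, the lysozyme gene of the gut Paneth cell and of some macrophages, stood at 552 against 26.7 CPM (log2 4.32, 4.04 to 4.60), in 28 of 99 Mmp12-positive cells, with 44.1% of its UMIs in 2 of them, and at 74.1 against 17.0 CPM at day 7 (2.06). Lyz1 is a close copy of Lyz2, which was part of the rule, so reads could be shared between them. Il7r, the interleukin-7 receptor chain, stood at 88.8 against 6.03 CPM after reversal (3.67, 3.11 to 4.25) in 32 of 99 cells, and H2-M2, a non-classical MHC gene, at 106 against 7.11 CPM in 13 cells, with 56.0% of its UMIs in 2 of them and 46.9 CPM without these 2. Restricted ratios were 3.60 for Lyz1, 3.87 for Il7r and 3.52 for H2-M2. In zero cells Lyz1, Il7r and H2-M2 were under the CPM filter at each time given here. They passed it through the positive cells alone and were thus bound to be higher, so their ratios are descriptions. These genes were picked after their values were seen.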
